A study of Mus musculus with 15 samples.

Results

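Pan-macrophage and myeloid genes are genes that macrophages and related myeloid cells share, some of them with other white blood cells, and 36 of them were followed by symbol through the bulk RNA of mouse pancreatic islets. Of the 36, 35 had an entry among the 24060 gene symbols of the count table. Adgre1, which encodes the F4/80 antigen, had no entry under that symbol; its older symbol Emr1 did, and its values are given beside the others without being counted. The list was drawn up by gene name and function, with earlier results of these data known. Of the 35, 8 (Cd84, Itgb2, Ptprc, Cd53, Cd48, Laptm5, Lcp1 and Coro1a) are expressed widely by white blood cells. Islets came from FVB/NJ mice 9 to 10 weeks old, in 5 groups of 3 libraries. The first group carried a human IAPP transgene (hIAPP), and the second carried the same kind of transgene together with human CAST (hIAPP:hCAST). The third carried rodent IAPP (rIAPP), the fourth human CAST alone (hCAST), and the fifth was wild type (WT). The labels place each IAPP transgene, and human CAST in the hCAST mice, under the insulin II promoter, and human CAST in the double transgenic mice under an insulin promoter, a promoter active in beta cells. Beta cells secrete IAPP, the islet amyloid polypeptide, beside insulin, and islet amyloid can build up from the human peptide but not from that of mice and rats. Calpastatin, the product of CAST, holds calpain proteases in check.

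Islets hold a small resident population of macrophages that lie along the blood vessels and touch the beta cells. Macrophages depend on the transcription factor PU.1 and on signalling through the CSF1 receptor for their identity and survival. They sense antibody-coated, microbial and dying material through Fc, Toll-like, scavenger and TAM receptors, many of which signal through the adaptor proteins DAP12 and FcR gamma, and they degrade what they take up in lysosomes.

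Total counts per library were 28287011 to 40191501. In WT 2, WT 3 and rIAPP 2 the ribosomal-rich entries Rn45s, Lars2 and Mir6236 took 94.3%, 68.9% and 67.7% of the counts, so that counts of all remaining entries came to 1667190, 8796210 and 9510502 there, while the 12 libraries left over had 30199765 to 40062153. One count in WT 2 was worth 0.438 CPM (counts scaled to a common library size by edgeR), and 7 of the 35 genes had 0 counts there and 14 had 1 to 3. The counts of called genes against WT or rIAPP are therefore also given without these 3 libraries, for the 35 genes and for most of the other lists. The human transgenes are not measured by the mouse gene counts. Mouse Iapp stood at 34777, 39142 and 37468 CPM in rIAPP islets and at 22675 to 25025 CPM in the hIAPP, hIAPP:hCAST and hCAST libraries. In WT islets it stood at 23835 and 23549 CPM in WT 1 and WT 3 and at 43427 CPM in the library labelled WT 2, whose Ins1 and Ins2 share, 16.3% of the other counts, lay beside the 15.8% and 16.1% of WT 1 and WT 3. Nothing in the labels says whether the 3 libraries of a group came from separate mice, so a p-value measures the spread between these libraries, which may be technical. By their titles the WT and hCAST libraries share one number range, hIAPP and hIAPP:hCAST another, and rIAPP yet another, so whatever the ranges stand for cannot be told apart from the IAPP transgenes in most comparisons.

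Human IAPP islets had the highest mean level for 30 of the 35 genes. The summed level of the 35 genes was 314, 357 and 253 CPM in hIAPP 1, 2 and 3, 269, 203 and 174 CPM in hIAPP:hCAST islets, 137, 124 and 149 CPM in rIAPP islets, 128, 132 and 140.5 CPM in hCAST islets and 119.8, 99.8 and 132 CPM in WT islets. All 6 libraries with human IAPP lay above the other 9, of which rIAPP 3 was the highest. In bulk tissue, fewer cells of a type and less RNA per cell cannot be told apart. Of the other 5 genes, Tlr2, Cd14, Cd163 and Mrc1 had their highest mean in rIAPP islets and Csf2ra in hCAST islets. Per length, as TPM recomputed from the deposited FPKM without the ribosomal-rich entries, Ctss had the highest level of the 35 in every group, with a mean of 118 TPM in hIAPP islets, 77.8 TPM in hIAPP:hCAST islets, 32.4 TPM in rIAPP islets, 39.7 TPM in hCAST islets and 35.8 TPM in WT islets. Next in hIAPP islets came Tyrobp at a mean of 41.9 TPM, Fcer1g at 24.0 TPM, Cd68 at 18.9 TPM and Tlr2 at 16.4 TPM, and the median of the 35 genes was 5.62 TPM in hIAPP islets against 2.15 TPM in WT islets.

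**Figure D1:**
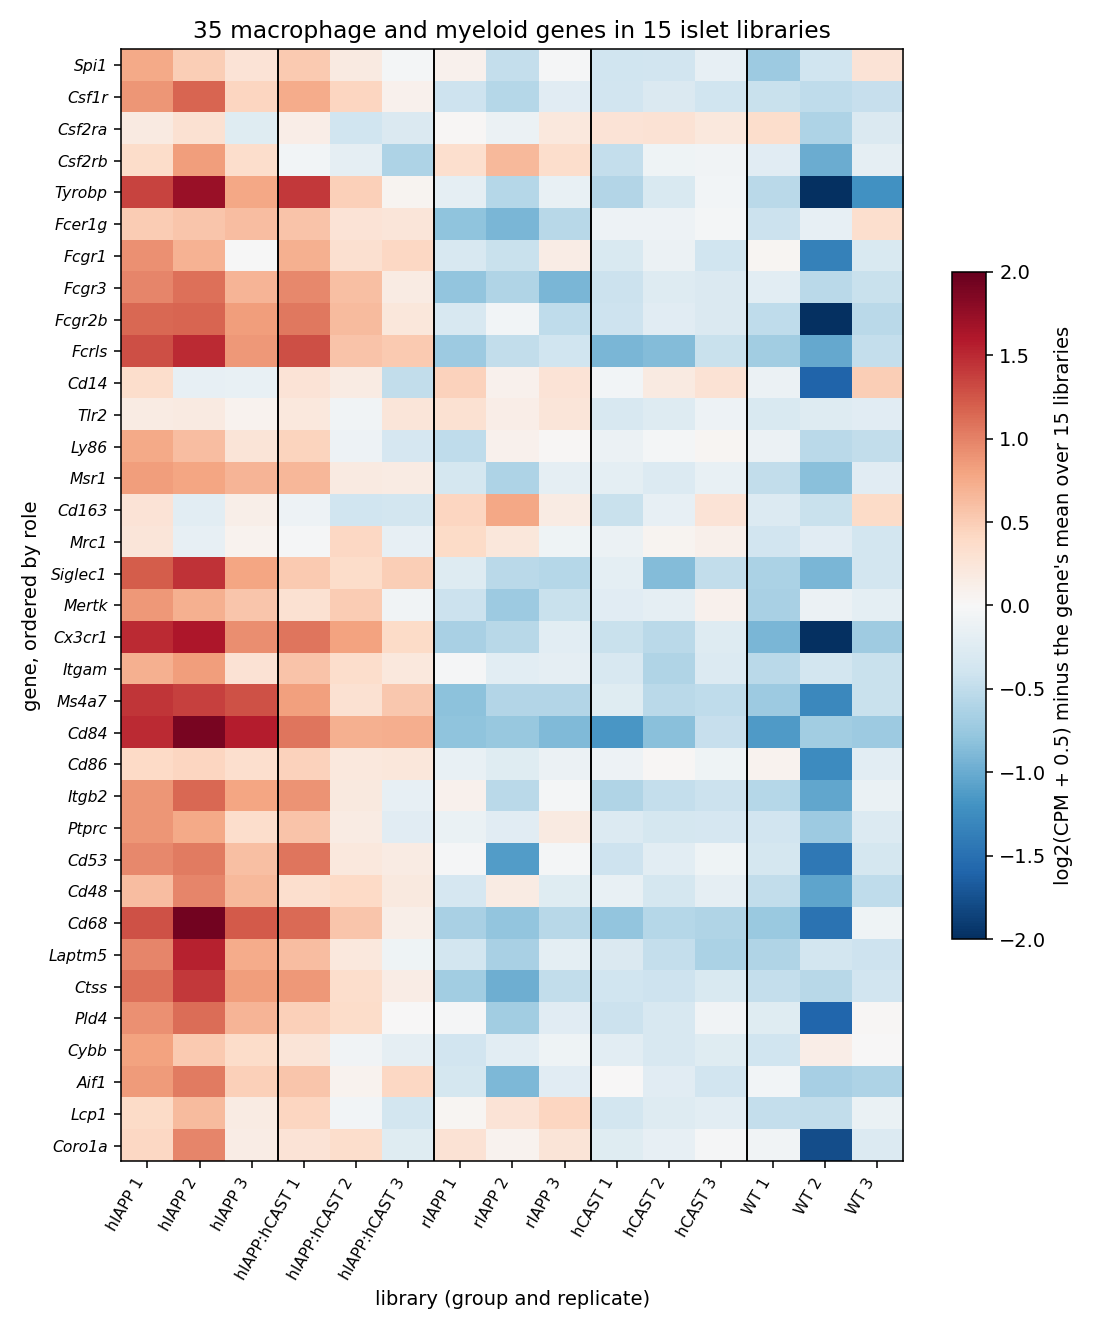
Each row is one of the 35 genes, ordered by role, and each column one library; colour is log2(CPM + 0.5) minus the gene's own mean over the 15 libraries. The hIAPP columns are the reddest, the hIAPP:hCAST columns lie between, and genes such as Csf2ra, Cd14, Tlr2, Cd163 and Mrc1 do not follow that order.

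The comparison of hIAPP with WT islets asks how these genes differ between islets with the human IAPP transgene and wild type islets. In it 28 of 35 genes were higher in hIAPP islets and none was lower by edgeR's quasi-likelihood test with an adjusted p below 0.05, where 6.27% of the 15460 tested genes were called higher. The median log2 fold change of the 35 was 1.35, beside 0.017 over all tested genes, and 34 of the 35 had a positive fold change. In 31 genes every hIAPP library lay above every WT library, which held for 17.9% of tested genes. The smallest adjusted p belonged to Ms4a7, and the greatest fold changes to Fcrls, Siglec1 and Cd84. Without WT 2, WT 3 and rIAPP 2, which leaves WT 1 as the only WT library and assumes that it varies as the other groups do, 18 genes were higher, 17 of them among the 28. The 11 that no longer passed were Aif1, Cd53, Coro1a, Csf2rb, Fcgr3, Lcp1, Ly86, Ptprc, Siglec1, Tlr2 and Tyrobp. The median log2 fold change of the 35 without WT 2, WT 3 and rIAPP 2 was 1.41, beside 0.0037 over all tested genes. With single libraries left out the count was 20 to 28. The shares of all tested genes called with libraries left out are not given here. A loss of calls over all genes can therefore not be told apart from one particular to the 35. The calls of Csf2rb, Fcer1g, Tlr2, Ly86, Cd53, Cybb, Lcp1 and Coro1a ended without WT 1, and those of Csf2rb, Fcer1g, Ly86, Lcp1 and Coro1a also without WT 2. The call of Aif1 ended without WT 3, as did those of Csf2rb, Ly86 and Coro1a. Without hIAPP 2 the calls of Csf2rb, Fcer1g, Tlr2, Ly86, Lcp1 and Coro1a ended, without hIAPP 1 those of Fcer1g, Ly86 and Coro1a, and without hIAPP 3 that of Fcer1g.

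**Figure D2:**
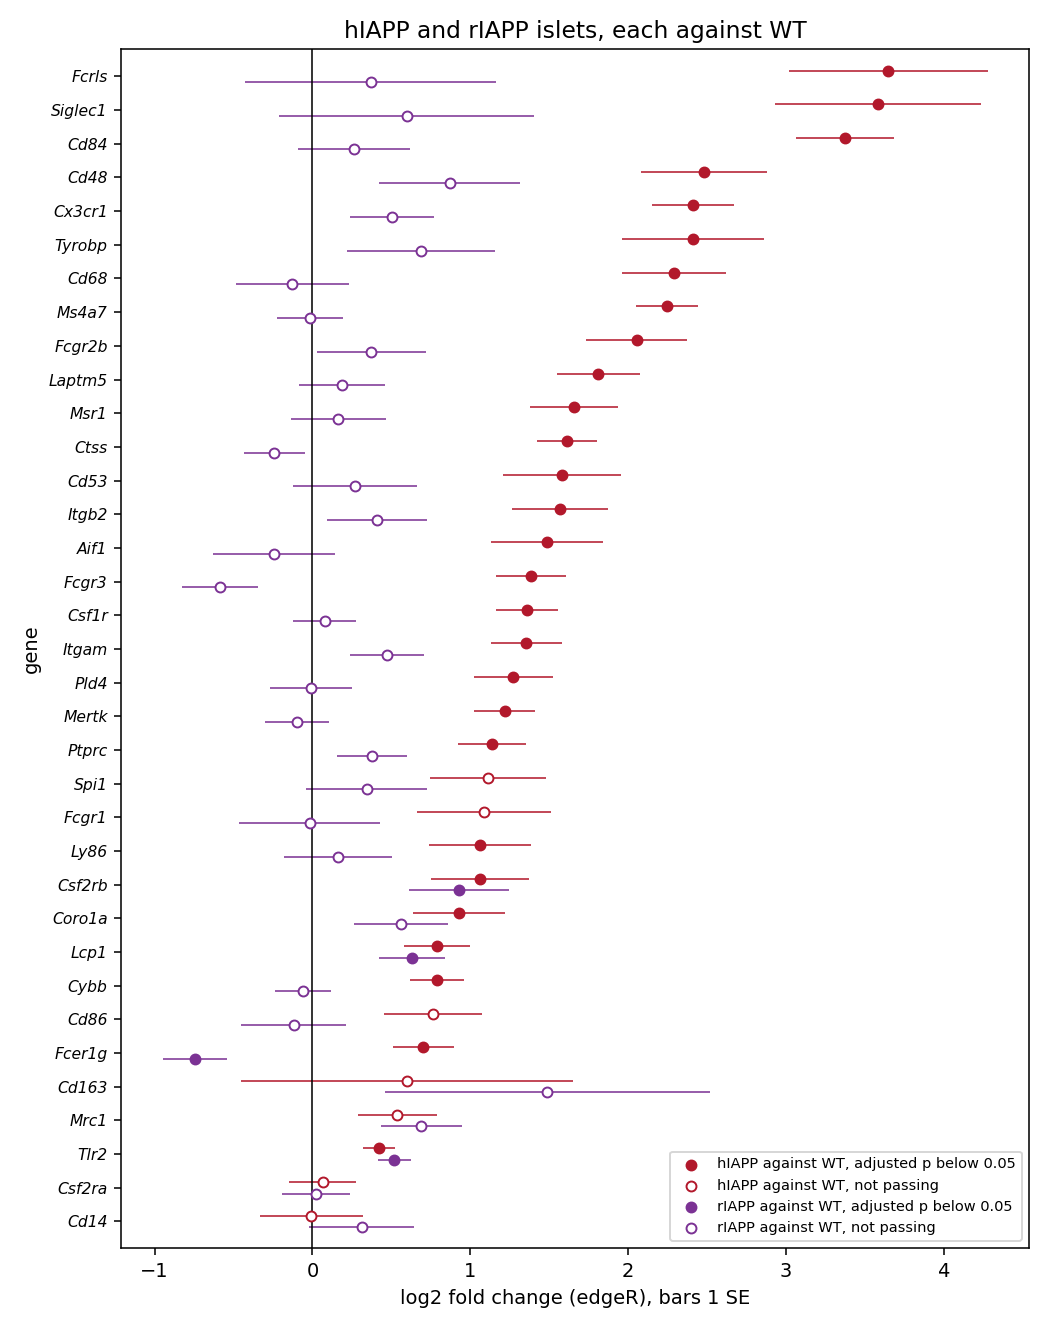
Log2 fold changes from edgeR, with bars of 1 standard error, for hIAPP against WT (red) and rIAPP against WT (purple), genes ordered by the first; filled points had an adjusted p below 0.05. Both comparisons use the same 3 WT libraries. The 28 filled red points all lie right of 0, and 4 purple points are filled: Tlr2, Lcp1 and Csf2rb right of 0 and Fcer1g left of it.

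Spi1 encodes PU.1, the lineage factor of myeloid cells, and was a low gene in these islets. It stood at 2.57, 2.07 and 1.7 CPM in hIAPP islets, 2.12, 1.57 and 1.26 CPM in hIAPP:hCAST islets, 1.44, 0.814 and 1.295 CPM in rIAPP islets, 0.881, 0.897 and 1.12 CPM in hCAST islets and 0.602, 0.876 and 1.7 CPM in WT islets. All 3 hIAPP libraries lay above all WT libraries only narrowly, hIAPP 3 standing next to WT 3. Its log2 fold change against WT was 1.11 ± 0.37 with an adjusted p of 0.0588, so it did not pass, while it passed against hCAST islets (1.12 ± 0.30, adjusted p = 0.0307, edgeR) and also against WT by DESeq2, by voom, without WT 3, and when WT 2, WT 3 and rIAPP 2 were all left out.

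PU.1 binds a purine-rich DNA element, the PU box, whose classical core letters are GAGGAA, and promoter windows of 250 bases before to 50 bases after the transcription start were taken from RefSeq on GRCm38.p6. Windows matched 26 of the 35 genes. GAGGAA was present on either strand in 16 of the 26 (61.5%), against 31.3% of all 27025 genes with a window, and the core TATAAA of the TATA box in 4 of the 26 (15.4%), against 15.7%. A match is a description of letters and not a measured binding site. The 5 windows shown stand for the range of what was found: Itgam with 3 matches and Cd84 with 1, both higher in hIAPP islets, Ctss with 2 and the highest level of all, Mrc1 with 3 and no call in any comparison, and Cx3cr1 with none although it rose. They run 5′ to 3′ on the gene's strand, plus for all but Cx3cr1, and capitals mark GAGGAA or its reverse complement. The windows are chr7:128062390-128062689 (matches starting at -84, -15 and 32 from the start base, which counts as 0), chr1:171839447-171839746 (at 11), chr3:95526536-95526835 (at -164 and 0), chr2:14229164-14229463 (at -180, -167 and -35) and chr9:120068247-120068546. None of the 5 holds a place where both motifs overlap.
Itgam: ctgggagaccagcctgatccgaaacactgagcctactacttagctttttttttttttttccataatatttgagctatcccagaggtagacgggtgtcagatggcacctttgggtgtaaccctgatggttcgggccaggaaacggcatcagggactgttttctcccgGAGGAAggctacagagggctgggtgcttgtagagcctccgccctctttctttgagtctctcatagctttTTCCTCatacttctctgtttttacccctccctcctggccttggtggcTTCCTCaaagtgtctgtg
Cd84: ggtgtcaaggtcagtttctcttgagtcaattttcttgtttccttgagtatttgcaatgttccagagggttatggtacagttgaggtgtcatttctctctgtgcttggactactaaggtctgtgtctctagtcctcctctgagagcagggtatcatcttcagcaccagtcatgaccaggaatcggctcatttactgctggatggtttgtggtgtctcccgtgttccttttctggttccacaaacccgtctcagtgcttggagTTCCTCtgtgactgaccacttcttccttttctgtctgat
Ctss: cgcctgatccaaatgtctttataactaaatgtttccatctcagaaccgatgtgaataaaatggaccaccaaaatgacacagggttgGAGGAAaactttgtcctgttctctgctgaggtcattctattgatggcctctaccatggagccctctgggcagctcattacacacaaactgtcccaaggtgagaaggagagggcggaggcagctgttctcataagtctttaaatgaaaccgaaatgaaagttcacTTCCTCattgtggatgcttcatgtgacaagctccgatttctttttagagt
Mrc1: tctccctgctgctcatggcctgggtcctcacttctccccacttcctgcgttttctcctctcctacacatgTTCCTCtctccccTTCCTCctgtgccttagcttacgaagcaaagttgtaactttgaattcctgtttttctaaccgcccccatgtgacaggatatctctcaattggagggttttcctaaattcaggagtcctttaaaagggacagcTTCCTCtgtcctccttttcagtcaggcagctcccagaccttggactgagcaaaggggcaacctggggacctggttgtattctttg
Cx3cr1: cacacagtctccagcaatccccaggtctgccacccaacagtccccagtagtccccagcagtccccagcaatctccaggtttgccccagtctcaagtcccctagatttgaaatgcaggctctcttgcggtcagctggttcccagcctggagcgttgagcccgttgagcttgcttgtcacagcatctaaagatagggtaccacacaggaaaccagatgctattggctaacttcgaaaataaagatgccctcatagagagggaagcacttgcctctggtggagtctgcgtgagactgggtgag

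Among the receptors for growth factors, Csf1r, the receptor for CSF1 and IL-34 on which tissue macrophages depend, was higher in islets with human IAPP. Csf1r stood at 24.9, 30.5 and 18.2 CPM in hIAPP islets, 22.6, 18.2 and 14.2 CPM in hIAPP:hCAST islets, 9.87, 8.805 and 11.3 CPM in rIAPP islets, 10.1, 10.9 and 9.99 CPM in hCAST islets and 9.66, 9.19 and 9.56 CPM in WT islets. The hIAPP and hIAPP:hCAST libraries all lay above the other 9, and its log2 fold change in hIAPP against WT was 1.36 ± 0.19 (adjusted p = 0.000669). Csf2rb encodes the beta chain shared by the receptors for GM-CSF, IL-3 and IL-5, and has a near-identical neighbour in the mouse, so its counts may be split between the copies. It stood at 1.93, 2.84 and 1.89 CPM in hIAPP islets, 1.31, 1.16 and 0.717 CPM in hIAPP:hCAST islets, 1.86, 2.44 and 1.9 CPM in rIAPP islets, 0.8405, 1.26 and 1.275 CPM in hCAST islets and 1.1, 0.438 and 1.16 CPM in WT islets. Csf2rb was higher in hIAPP than in WT islets by 1.06 ± 0.31 (adjusted p = 0.0364), and hIAPP:hCAST libraries lay with the WT and hCAST ones rather than with hIAPP. Csf2ra, the alpha chain specific to GM-CSF, did not pass, at 8.67, 9.585 and 6.34 CPM in hIAPP islets, 8.37, 5.65 and 6.12 CPM in hIAPP:hCAST islets, 7.77, 6.96 and 8.91 CPM in rIAPP islets, 9.31, 9.41 and 8.91 CPM in hCAST islets and 9.87, 4.82 and 6.17 CPM in WT islets (log2 fold change in hIAPP against WT 0.065 ± 0.21, adjusted p = 0.894).

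Fc receptors bind the constant part of antibodies, and with their signalling adaptors 5 of 6 genes were higher in hIAPP islets. Tyrobp encodes DAP12, the adaptor with an activation motif that TREM2 and other myeloid receptors use. Its levels were 10.6, 14.0 and 6.97 CPM in hIAPP islets, 11.1, 5.57 and 4.05 CPM in hIAPP:hCAST islets, 3.37, 2.44 and 3.46 CPM in rIAPP islets, 2.42, 3.04 and 3.69 CPM in hCAST islets and 2.495, 0.438 and 1.39 CPM in WT islets. The log2 fold change in hIAPP against WT was 2.41 ± 0.45 (adjusted p = 0.00554), and hIAPP:hCAST 1 lay among the hIAPP libraries. Fcer1g, the FcR gamma chain that carries the signal of activating Fc receptors, stood at 6.59, 6.87 and 7.14 CPM in hIAPP islets, 6.89, 5.555 and 5.42 CPM in hIAPP:hCAST islets, 2.37, 2.15 and 2.9 CPM in rIAPP islets, 4.14, 4.15 and 4.36 CPM in hCAST islets and 3.23, 3.94 and 5.78 CPM in WT islets. It was higher in hIAPP islets by 0.70 ± 0.19 (adjusted p = 0.027), and the rIAPP libraries were the lowest of all 15. Fcgr3, a low-affinity activating receptor for IgG, stood at 7.2, 7.88 and 5.77 CPM in hIAPP islets against 2.9, 2.19 and 2.39 CPM in WT islets (1.39 ± 0.22, adjusted p = 0.0012). Fcgr2b, the inhibitory receptor for IgG, rose as well and had the smallest p of the 6, at 4.55, 4.65 and 3.57 CPM in hIAPP islets, 4.26, 3.06 and 2.18 CPM in hIAPP:hCAST islets, 1.33, 1.7 and 1.12 CPM in rIAPP islets, 1.22, 1.46 and 1.37 CPM in hCAST islets and 1.12, 0 and 1.08 CPM in WT islets. The 6 libraries with human IAPP lay above the other 9, and the log2 fold change in hIAPP against WT was 2.05 ± 0.32 (adjusted p = 0.000939). The Fcgr genes are close relatives, and how reads matching several of them were counted is not given in the sources used here.

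Fcrls, a mouse Fc receptor-like protein known as a marker of microglia, had the greatest fold change of the 35. It was near the floor without human IAPP, at 1.98, 2.35 and 1.35 CPM in hIAPP islets, 1.97, 1.01 and 0.95 CPM in hIAPP:hCAST islets, 0.114, 0.222 and 0.268 CPM in rIAPP islets, 0.04, 0.0549 and 0.247 CPM in hCAST islets and 0.129, 0 and 0.231 CPM in WT islets. Summed counts were 287 in hIAPP islets, 217 in hIAPP:hCAST islets, 21 in rIAPP islets, 18 in hCAST islets and 9 in WT islets. The lowest library with human IAPP, at 0.95 CPM, lay above the highest without it, at 0.268 CPM, and the log2 fold change was 3.65 ± 0.63 against WT (adjusted p = 0.00208). Fcgr1, the high-affinity receptor for IgG, stood at 1.93, 1.57 and 0.777 CPM in hIAPP islets, 1.59, 1.1 and 1.2 CPM in hIAPP:hCAST islets, 0.53, 0.444 and 0.915 CPM in rIAPP islets, 0.54, 0.677 and 0.476 CPM in hCAST islets and 0.817, 0 and 0.54 CPM in WT islets. The hIAPP and WT libraries overlapped, and it did not pass (1.08 ± 0.42, adjusted p = 0.105).

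The 7 receptors that recognise microbial patterns or take up material by scavenging were divided, with 4 higher in hIAPP islets and 3 not passing. Siglec1, or sialoadhesin, which binds sialic acid on other cells and pathogens, stood at 1.68, 2.07 and 1.13 CPM in hIAPP islets, 0.852, 0.716 and 0.826 CPM in hIAPP:hCAST islets, 0.284, 0.148 and 0.134 CPM in rIAPP islets, 0.32, 0.0183 and 0.171 CPM in hCAST islets and 0.1075, 0 and 0.231 CPM in WT islets. As with Fcrls, all 6 libraries with human IAPP lay above the other 9, and the log2 fold change in hIAPP against WT was 3.58 ± 0.65 (adjusted p = 0.00294). Msr1, the class A scavenger receptor, had the smallest p of the 7 and stood at 2.475, 2.39 and 2.18 CPM in hIAPP islets, 2.14, 1.39 and 1.37 CPM in hIAPP:hCAST islets, 0.815, 0.592 and 0.982 CPM in rIAPP islets, 0.961, 0.878 and 1.01 CPM in hCAST islets and 0.688, 0.438 and 0.925 CPM in WT islets. All hIAPP libraries lay above the other 12, with a log2 fold change of 1.66 ± 0.28 against WT (adjusted p = 0.00179). Ly86, also called MD-1, which pairs with a relative of Toll-like receptor 4, had 2.87, 2.585 and 1.905 CPM in hIAPP islets against 1.355, 0.876 and 0.925 CPM in WT islets (1.06 ± 0.32, adjusted p = 0.0416).

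Tlr2, the receptor for bacterial lipopeptides, was higher with either IAPP transgene. Tlr2 stood at 20.8, 21.1 and 19.4 CPM in hIAPP islets, 21.6, 17.6 and 22.1 CPM in hIAPP:hCAST islets, 23.1, 20.35 and 21.9 CPM in rIAPP islets, 14.65, 15.4 and 17.15 CPM in hCAST islets and 14.8, 15.3 and 15.8 CPM in WT islets. All 9 libraries with either IAPP transgene lay above all 6 without one, the smallest value being 17.6 CPM and the highest of the others 17.2 CPM. The log2 fold change was 0.42 ± 0.10 in hIAPP against WT (adjusted p = 0.0161), 0.52 ± 0.10 in rIAPP against WT (adjusted p = 0.00168) and -0.098 ± 0.094 in hIAPP against rIAPP (adjusted p = 0.591). The comparisons against WT share the WT libraries. The call of Tlr2 in hIAPP against WT ended without WT 1 or without hIAPP 2. In hIAPP:hCAST against hCAST islets Tlr2 did not pass.

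Cd14, Cd163 and Mrc1 did not pass in hIAPP against WT. Cd14, the co-receptor for lipopolysaccharide, stood at 3.14, 2.025 and 2.05 CPM in hIAPP islets, 2.935, 2.67 and 1.53 CPM in hIAPP:hCAST islets, 3.41, 2.52 and 2.92 CPM in rIAPP islets, 2.22, 2.73 and 2.95 CPM in hCAST islets and 2.13, 0.438 and 3.47 CPM in WT islets. No group stood apart, and the log2 fold change in hIAPP against WT was -0.0074 ± 0.33 (adjusted p = 0.994). Mrc1, the mannose receptor, stood at 2.63, 1.85 and 2.275 CPM in hIAPP islets, 2.1, 3.00 and 1.85 CPM in hIAPP:hCAST islets, 2.955, 2.59 and 1.99 CPM in rIAPP islets, 1.94, 2.25 and 2.34 CPM in hCAST islets and 1.53, 1.75 and 1.54 CPM in WT islets. Its log2 fold change in hIAPP against WT was 0.54 ± 0.25 (adjusted p = 0.174) and WT held the 3 lowest libraries. Cd163, the receptor that clears haemoglobin bound to haptoglobin, had at most 0.666 CPM in any library, at 0.321, 0.08615 and 0.24 CPM in hIAPP islets, 0.1325, 0.0194 and 0.03115 CPM in hIAPP:hCAST islets, 0.417, 0.666 and 0.268 CPM in rIAPP islets, 0, 0.11 and 0.324 CPM in hCAST islets and 0.0645, 0 and 0.386 CPM in WT islets. Its summed counts were 34 in hIAPP, 10 in hIAPP:hCAST, 43 in rIAPP, 23 in hCAST and 8 in WT islets. At that depth its log2 fold change of 0.60 ± 1.05 (adjusted p = 0.771) was not distinguishable from 0.

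Both receptors of the chemokine and dead-cell group were higher in hIAPP islets. Cx3cr1, the receptor for the membrane-bound chemokine fractalkine, stood at 25.2, 27.55 and 16.9 CPM in hIAPP islets, 18.65, 15.5 and 11.4 CPM in hIAPP:hCAST islets, 5.3, 5.7 and 7.41 CPM in rIAPP islets, 6.16, 5.75 and 7.1 CPM in hCAST islets and 4.37, 1.75 and 5.09 CPM in WT islets. The lowest library with human IAPP, hIAPP:hCAST 3, lay above the highest without it, rIAPP 3, and the log2 fold change in hIAPP against WT was 2.41 ± 0.26 (adjusted p = 0.000125). Mertk, a TAM receptor through which macrophages engulf dying cells, stood at 11.7, 10.5 and 9.34 CPM in hIAPP islets against 3.76, 5.69 and 5.32 CPM in WT islets (1.22 ± 0.19, adjusted p = 0.00114).

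Of 8 genes of surface markers and adhesion molecules, 7 were higher in hIAPP islets. Cd84, a receptor of the SLAM family, stood at 5.78, 7.8 and 6.12 CPM in hIAPP islets, 4.185, 3.155 and 3.21 CPM in hIAPP:hCAST islets, 0.777, 0.814 and 0.714 CPM in rIAPP islets, 0.5, 0.75 and 1.12 CPM in hCAST islets and 0.516, 0.876 and 0.848 CPM in WT islets. The groups did not touch, with the lowest hIAPP library at 5.78 CPM, the lowest hIAPP:hCAST library at 3.155 CPM and the highest of the other 9 at 1.12 CPM, and the log2 fold change in hIAPP against WT was 3.37 ± 0.31 (adjusted p = 9.83e-06). Ms4a7, a membrane protein of macrophages, stood at 11.49, 10.98 and 10.25 CPM in hIAPP islets, 7.37, 4.97 and 5.95 CPM in hIAPP:hCAST islets, 2.01, 2.44 and 2.455 CPM in rIAPP islets, 3.26, 2.54 and 2.63 CPM in hCAST islets and 2.17, 1.31 and 2.78 CPM in WT islets. Here too the hIAPP libraries, the hIAPP:hCAST libraries and the other 9 formed 3 ranges without overlap, with a log2 fold change of 2.25 ± 0.20 (adjusted p = 6.91e-06).

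Itgam, the alpha chain of the integrin Mac-1, stood at 4.21, 4.65 and 3.05 CPM in hIAPP islets against 1.48, 1.75 and 1.62 CPM in WT islets (1.35 ± 0.22, adjusted p = 0.00153). Its partner Itgb2, the beta chain common to the leukocyte integrins, stood at 6.37, 7.82 and 5.94 CPM in hIAPP islets against 2.02, 1.31 and 2.93 CPM in WT islets (1.56 ± 0.30, adjusted p = 0.00435). Both chains of Mac-1 were higher in hIAPP islets. Ptprc, the phosphatase that marks all leukocytes, rose by 1.14 ± 0.22, the tetraspanin gene Cd53 by 1.58 ± 0.37 and Cd48, a ligand of the SLAM family, by 2.48 ± 0.40 on the log2 scale. Cd86, a costimulatory ligand for T cells, stood at 1.08, 1.12 and 1.02 CPM in hIAPP islets, 1.155, 0.89 and 0.9035 CPM in hIAPP:hCAST islets, 0.587, 0.518 and 0.603 CPM in rIAPP islets, 0.62, 0.714 and 0.628 CPM in hCAST islets and 0.753, 0 and 0.54 CPM in WT islets. Every hIAPP library lay above every WT library, but it did not pass (0.76 ± 0.31, adjusted p = 0.122). Emr1, the older symbol of Adgre1, stood at 7.31, 7.17 and 5.16 CPM in hIAPP islets against 1.68, 1.31 and 2.47 CPM in WT islets (1.78 ± 0.23, adjusted p = 0.000275).

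All 4 genes of endosomes and lysosomes were higher in hIAPP islets. Ctss encodes cathepsin S, a protease of antigen-presenting cells, and stood at 69.0, 85.1 and 57.3 CPM in hIAPP islets, 58.4, 40.9 and 35.1 CPM in hIAPP:hCAST islets, 19.4, 16.0 and 22.3 CPM in rIAPP islets, 23.9, 23.7 and 25.5 CPM in hCAST islets and 22.6, 21.45 and 24.3 CPM in WT islets. The rIAPP libraries held 2 of the lowest 3 values of all, and the hIAPP libraries lay far above those of WT, with a log2 fold change of 1.61 ± 0.19 (adjusted p = 0.000267). Cd68, a lysosomal glycoprotein of macrophages, stood at 8.765, 14.1 and 8.49 CPM in hIAPP islets, 7.86, 5.11 and 3.66 CPM in hIAPP:hCAST islets, 1.95, 1.7 and 2.1 CPM in rIAPP islets, 1.72, 2.09 and 2.02 CPM in hCAST islets and 1.785, 0.876 and 3.08 CPM in WT islets. Its log2 fold change was 2.29 ± 0.33 (adjusted p = 0.00072), with hIAPP 2 the highest of the 15. Laptm5, a lysosomal membrane protein of blood cells, rose by 1.81 ± 0.26 and Pld4, an exonuclease of endolysosomes that digests single-stranded nucleic acids, by 1.27 ± 0.25 (adjusted p = 0.000605 and 0.00428).

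Cybb, the catalytic subunit of the phagocyte NADPH oxidase, had a smaller difference. It stood at 14.2, 11.6 and 10.4 CPM in hIAPP islets, 9.505, 7.53 and 6.96 CPM in hIAPP:hCAST islets, 5.95, 6.73 and 7.43 CPM in rIAPP islets, 6.74, 6.26 and 6.64 CPM in hCAST islets and 5.85, 8.76 and 7.94 CPM in WT islets. All hIAPP libraries lay above the WT libraries, with a log2 fold change of 0.79 ± 0.17 (adjusted p = 0.0079). The 3 genes of the actin cytoskeleton were also higher in hIAPP islets. Aif1, which encodes the widely used macrophage stain Iba1, stood at 2.17, 2.54 and 1.55 CPM in hIAPP islets, 1.67, 1.045 and 1.48 CPM in hIAPP:hCAST islets, 0.663, 0.296 and 0.759 CPM in rIAPP islets, 0.981, 0.769 and 0.628 CPM in hCAST islets and 0.925, 0.438 and 0.463 CPM in WT islets. On the log2 scale Aif1 rose by 1.48 ± 0.35, the actin-bundling Lcp1 by 0.79 ± 0.21 and the coronin gene Coro1a by 0.93 ± 0.29 (adjusted p = 0.0137, 0.0235 and 0.0477).

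**Figure D3:**
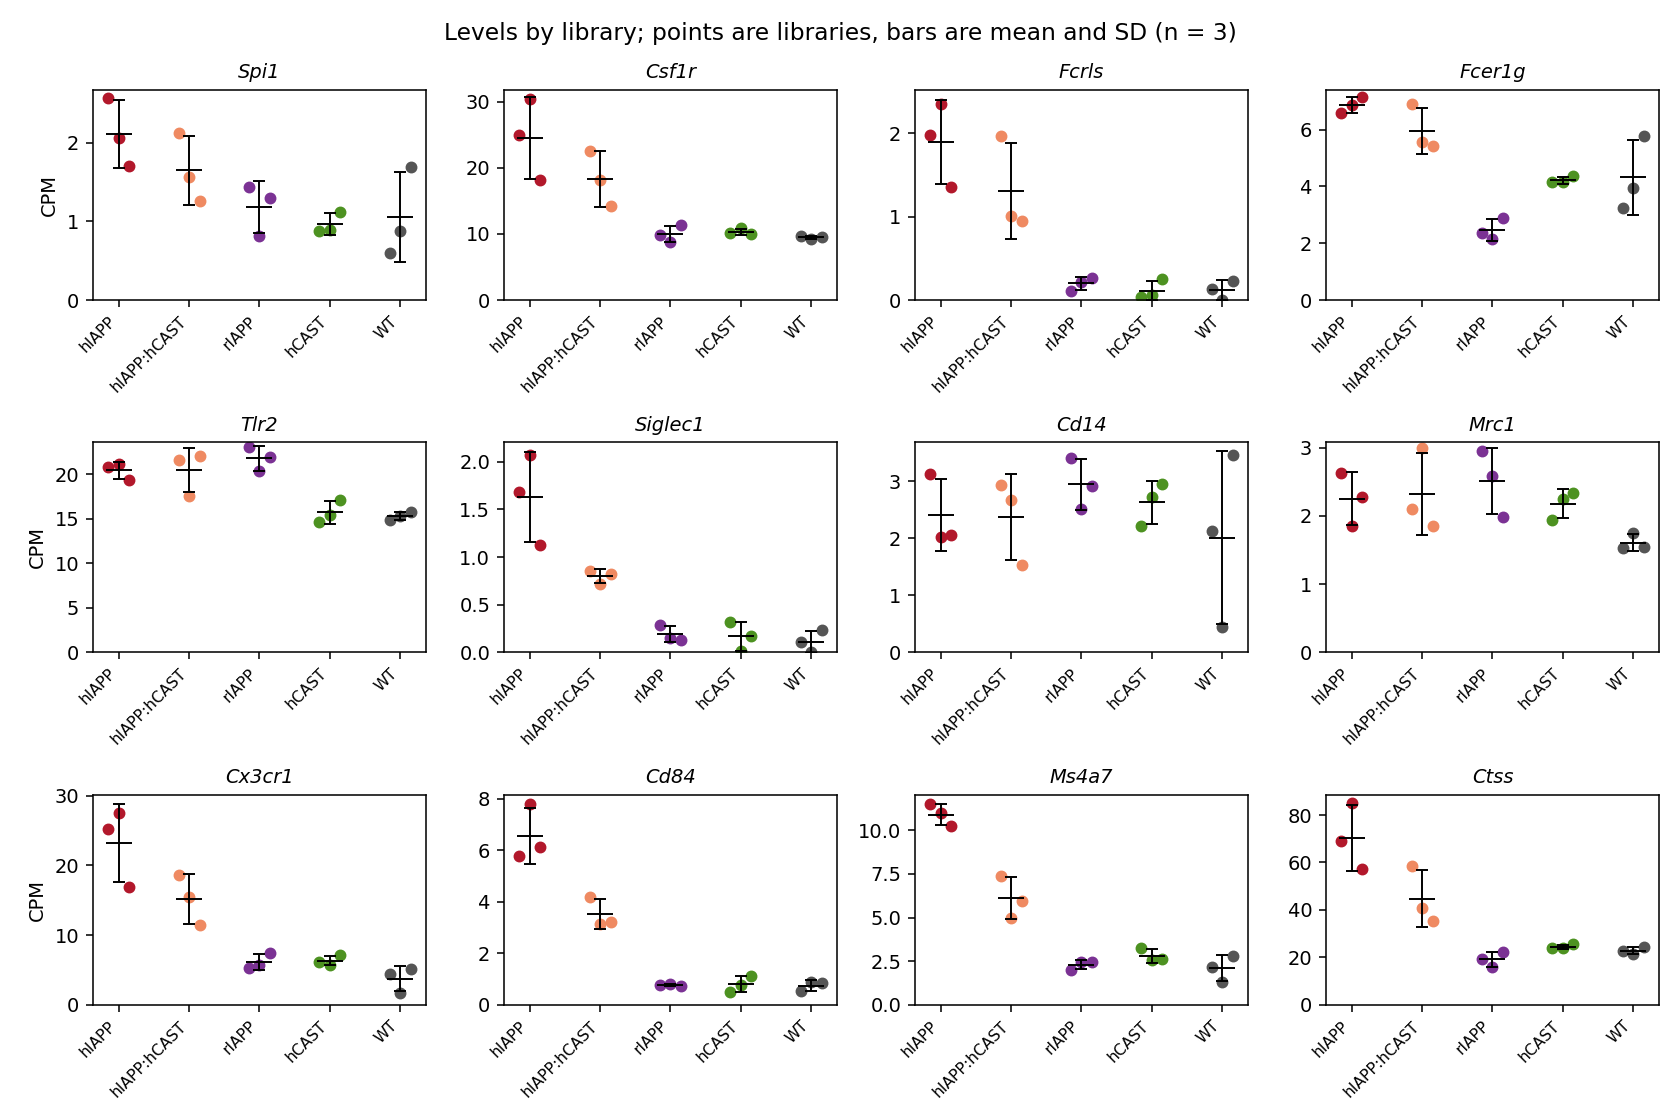
CPM of 12 of the 35 genes in each library (points), with the mean and SD of each group of 3 (bars); every axis starts at 0. Csf1r, Fcrls, Siglec1, Cx3cr1, Cd84, Ms4a7 and Ctss are highest in hIAPP and next in hIAPP:hCAST islets, Tlr2 is higher in all 3 groups with an IAPP transgene, Fcer1g is lowest in rIAPP islets, and Cd14 and Mrc1 overlap between hIAPP and the other transgenic groups.

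Within the human IAPP groups the same libraries were high or low for most of the genes. Among the hIAPP libraries, hIAPP 3 was the lowest for 29 of the 35 genes and hIAPP 2 the highest for 23. Among the hIAPP:hCAST libraries, hIAPP:hCAST 1 was the highest for 30 genes and hIAPP:hCAST 3 the lowest for 26. WT 2 was the lowest WT library for 26 genes, rIAPP 2 the lowest rIAPP library for 21, hCAST 1 the lowest hCAST library for 21 and hCAST 3 the highest for 21. Acinar cell markers summed to 40180.0, 79380.0 and 36090.0 CPM in hIAPP 1, 2 and 3 and to 38920.0, 81040.0 and 5526 CPM in hIAPP:hCAST 1, 2 and 3, and fibroblast and stellate cell markers to 1053, 907 and 858 CPM and 583, 594 and 258 CPM in the same libraries. Their part in the spread of the 35 genes was not tested.

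The comparison of hIAPP with hCAST islets, which differ in both human IAPP and human CAST, is against a group with no ribosomal-rich library. It shares the hIAPP libraries with the comparison against WT. In it 28 of 35 genes were higher in hIAPP islets and none lower, where 5.04% of tested genes were called higher, and the median log2 fold change was 1.305. In 31 genes every hIAPP library lay above every hCAST library, against 16.7% of tested genes. The fold change of Fcrls was 4.01 ± 0.50 (adjusted p = 0.000166), that of Siglec1 3.26 ± 0.48 (adjusted p = 0.000606), that of Cd84 3.04 ± 0.24 (adjusted p = 1.33e-06) and that of Cd68 2.42 ± 0.28 (adjusted p = 0.000136). Spi1 and Fcgr1 passed here (1.33 ± 0.36 and adjusted p = 0.034 for Fcgr1), whereas Ly86 (0.76 ± 0.27, adjusted p = 0.102) and Coro1a (0.80 ± 0.25, adjusted p = 0.0639) did not. Csf2ra, Cd14, Cd163, Mrc1 and Cd86 passed in neither comparison. With single libraries left out, 20 to 28 of the genes were higher, and Spi1, Csf2rb, Tyrobp, Fcer1g, Fcgr1, Tlr2, Cd53 and Lcp1 each lost the call without hCAST 1 and without hCAST 2, Fcgr1 and Lcp1 also without hCAST 3. Without hIAPP 2 all of these but Tyrobp lost it, without hIAPP 1 Spi1, Fcgr1, Tlr2, Cd53 and Lcp1, and without hIAPP 3 Fcer1g.

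Set against rodent IAPP, which shares the promoter but does not form amyloid, human IAPP islets had 25 of 35 genes higher and none lower by edgeR at an adjusted p below 0.05, where 7.71% of tested genes were called higher. The median log2 fold change was 1.28, and in 26 genes all hIAPP libraries lay above all rIAPP libraries, against 19.8% of tested genes. The smallest adjusted p was again that of Ms4a7 (2.26 ± 0.17, adjusted p = 2.07e-07), followed by Cd84 (3.11 ± 0.26, adjusted p = 5e-07) and Fcgr3 (1.97 ± 0.21, adjusted p = 6.07e-06). Fcrls differed by 3.28 ± 0.50 (adjusted p = 0.000254) and Siglec1 by 2.98 ± 0.50 (adjusted p = 0.000587). Fcer1g, which was lower in rIAPP than in WT islets, differed by 1.45 ± 0.18 (adjusted p = 3.18e-05). The 10 genes that did not pass were Spi1, Csf2ra, Csf2rb, Fcgr1, Cd14, Tlr2, Cd163, Mrc1, Lcp1 and Coro1a. Among them, Csf2rb had 1.93, 2.84 and 1.89 CPM in hIAPP islets and 1.86, 2.44 and 1.9 CPM in rIAPP islets, a log2 difference of 0.13 ± 0.26, with a 95% interval, by normal approximation, of -0.37 to 0.64. For Tlr2 that interval was -0.28 to 0.086 and for Lcp1 -0.20 to 0.52. Without WT 2, WT 3 and rIAPP 2, 20 of the 25 remained, and Cd53, Cd86, Ly86, Ptprc and Tyrobp did not. With single libraries left out the count was 22 to 25; Cd86 lost the call without any one of the 6 libraries, Ly86 without any but hIAPP 3, and Ptprc without hIAPP 1, rIAPP 1 or rIAPP 2.

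Rodent IAPP islets differed from WT islets in few of the genes: Tlr2, Lcp1 and Csf2rb were higher and Fcer1g was lower. That is 3 of 35 higher, where 10.7% of tested genes were called higher, and 1 of 35 lower, where 12.6% were called lower, so both shares lay under those over all genes. The median log2 fold change of the 35 was 0.27, beside 0.011 over all tested genes. Lcp1 stood at 9.74, 11.47 and 12.9 CPM in rIAPP islets against 6.62, 6.57 and 8.56 CPM in WT islets (0.63 ± 0.21, adjusted p = 0.0408). Csf2rb differed by 0.93 ± 0.32 (adjusted p = 0.0444) and Fcer1g fell to 2.37, 2.15 and 2.9 CPM in rIAPP islets, against 3.23, 3.94 and 5.78 CPM in WT islets (-0.74 ± 0.20, adjusted p = 0.0142). Fcgr3, whose protein needs the FcR gamma chain, also lay lower in all rIAPP libraries than in all WT libraries, at 1.78, 2.07 and 1.585 CPM in rIAPP islets against 2.9, 2.19 and 2.39 CPM in WT islets, but did not pass (-0.59 ± 0.24, adjusted p = 0.0907). Every rIAPP library lay below every WT library in 2 of 35 genes, against 19.0% of tested genes. In 9 genes every rIAPP library lay above every WT library, against 21.7%. The call of Tlr2 held with every single library left out and without the 3 ribosomal-rich ones. That of Fcer1g ended without WT 3 (adjusted p = 0.157), without rIAPP 1 (0.0562) and without the 3 ribosomal-rich libraries (-0.30, adjusted p = 0.384). The call of Csf2rb ended without any one of the 6 libraries, and that of Lcp1 without WT 1, WT 2, rIAPP 2 or rIAPP 3. That left 2 calls without WT 1, WT 2, WT 3, rIAPP 1 or rIAPP 2 and 3 without rIAPP 3, where Mrc1 was called. Without the 3 ribosomal-rich libraries 1 call was left.

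Against hCAST islets, rIAPP islets gave 3 of 35 genes higher (10.6% of tested genes) and 1 lower (11.8%), again Tlr2, Csf2rb and Lcp1 above and Fcer1g below. This comparison shares the rIAPP libraries with the one against WT. Tlr2 differed by 0.47 ± 0.094 (adjusted p = 0.00156), Csf2rb by 0.84 ± 0.27 (adjusted p = 0.0329), Lcp1 by 0.56 ± 0.19 (adjusted p = 0.0415) and Fcer1g by -0.74 ± 0.18 (adjusted p = 0.00657). All 3 rIAPP libraries lay below all hCAST libraries in 7 of 35 genes, against 23.2% of tested genes, and above them in 6, against 22.4%. Fcer1g and Fcgr3 were among the 7, and Fcgr3 did not pass (-0.57 ± 0.21, adjusted p = 0.0642). There were 2 calls without hCAST 1, hCAST 2, rIAPP 2 or rIAPP 3, and 2, Tlr2 and Fcer1g, without the 3 ribosomal-rich libraries.

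Human CAST alone made no difference that passed. Of the 35 genes, 0 were called in hCAST against WT islets by edgeR, where 0.0194% of tested genes were called in either direction, and 0 had an unadjusted p below 0.05. DESeq2 and voom also called 0, as did edgeR without WT 2, WT 3 and rIAPP 2. The median log2 fold change was 0.089, and the widest differences were those of Cd48 (0.80 ± 0.43, adjusted p = 0.745) and Tyrobp (0.63 ± 0.46, adjusted p = 0.845). For Csf1r the 95% interval of the log2 difference, by normal approximation, was -0.27 to 0.50, and for Ctss -0.29 to 0.45.

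With human CAST also present, human IAPP islets still had more of these transcripts than their hCAST controls, in 11 of 35 genes. The 11 were Csf1r, Fcgr3, Fcgr2b, Fcrls, Siglec1, Cx3cr1, Itgam, Ms4a7, Cd84, Cd68 and Ctss, none was lower, and 0.517% of tested genes were called higher. The median log2 fold change was 0.82, beside 0.0052 over all tested genes, and in 26 genes every hIAPP:hCAST library lay above every hCAST library, against 6.64% of tested genes. Cd84 stood at 4.185, 3.155 and 3.21 CPM in hIAPP:hCAST islets against 0.5, 0.75 and 1.12 CPM in hCAST islets (2.14 ± 0.24, adjusted p = 0.000294). Fcrls differed by 3.48 ± 0.51 (adjusted p = 0.00244), Ms4a7 by 1.12 ± 0.16 (adjusted p = 0.00244) and Siglec1 by 2.24 ± 0.49 (adjusted p = 0.0446). All 11 were also among the 28 genes higher in hIAPP against WT, and they make up 39.3% of the 28. As 28 of the 35 passed there, most of 11 genes drawn at random from the 35 would tend to lie among them. The overlap of calls over all tested genes was not counted. That comparison shares no library with this one, but both come from the same fit and estimate of the spread. The title number ranges also differ in the same way in both. The count of 11 rested on single libraries. It was 4 without hCAST 1, 3 without hCAST 2, 6 without hCAST 3, 4 without hIAPP:hCAST 1, 7 without hIAPP:hCAST 2 and 14 without hIAPP:hCAST 3. Without WT 2, WT 3 and rIAPP 2, which are in neither group but share the estimate of the spread, Cd84, Fcrls and Ms4a7 remained, and with the compared groups alone 0 passed. Csf2ra lay lower in every hIAPP:hCAST library than in every hCAST library, at 8.37, 5.65 and 6.12 CPM in hIAPP:hCAST islets against 9.31, 9.41 and 8.91 CPM in hCAST islets, and did not pass (-0.46 ± 0.19, adjusted p = 0.437).

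**Figure D4:**
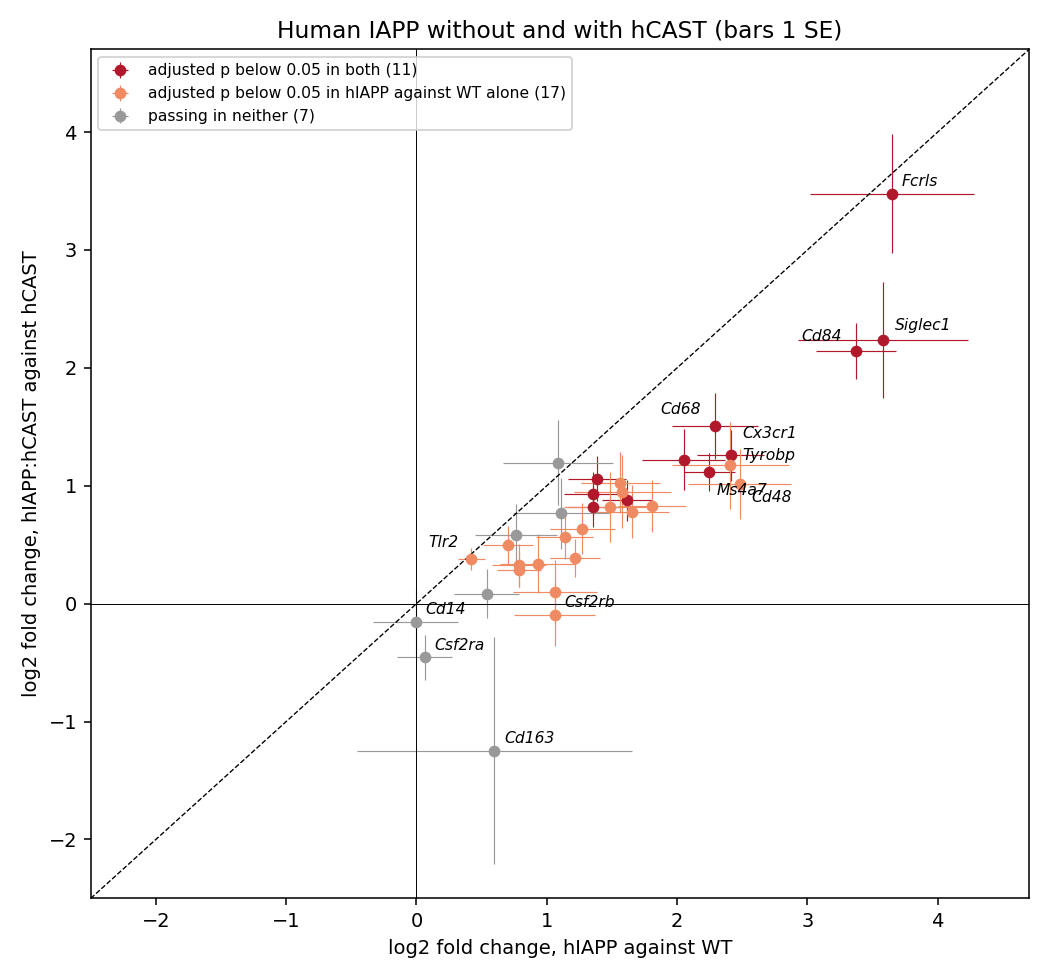
Log2 fold changes of the 35 genes for hIAPP against WT (horizontal) and hIAPP:hCAST against hCAST (vertical), with bars of 1 standard error. The dashed line marks equal values. The comparisons share no library but come from the same fit and estimate of the spread. Of the 35 points, 11 passed in both, 17 in hIAPP against WT alone and 7 in neither, and all but Fcgr1 lie under the line.

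Directly compared, hIAPP:hCAST islets had lower levels than hIAPP islets in 33 of 35 genes by sign, of which 1, Ms4a7, passed, where 0.375% of tested genes were called lower. Ms4a7 fell to 7.37, 4.97 and 5.95 CPM in hIAPP:hCAST islets, against 11.49, 10.98 and 10.25 CPM in hIAPP islets (-0.84 ± 0.15, adjusted p = 0.0197, edgeR). The median log2 fold change was -0.52, beside 0.0022 over all tested genes. At an unadjusted p below 0.05 there were 18 genes, all lower, and DESeq2 called 7 (Cd68, Cd84, Csf2rb, Ctss, Cybb, Laptm5 and Ms4a7). The shares of all tested genes by sign and at an unadjusted p were not counted, and the share called by DESeq2 is not given here. In 11 genes every hIAPP:hCAST library lay below every hIAPP library, against 8.69% of tested genes. They were Csf2rb, Msr1, Siglec1, Mertk, Ms4a7, Cd84, Cd48, Cd68, Laptm5, Pld4 and Cybb. Next to Ms4a7, Laptm5 (-0.91 ± 0.21, adjusted p = 0.0646), Cd84 (-0.90 ± 0.21, adjusted p = 0.0659) and Csf2rb (-1.07 ± 0.26, adjusted p = 0.0736) came nearest to passing, while Tlr2 (0.0015 ± 0.092) and Mrc1 (0.036 ± 0.21) had the only differences that were not negative. The call of Ms4a7 ended without hIAPP 1 (adjusted p = 0.117), hIAPP 2 (0.0885) or hIAPP 3 (0.0583), with the 3 ribosomal-rich libraries left out (0.057) and with the compared groups alone (0.201), and 6 genes were called without hIAPP:hCAST 1.

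The interaction asks whether the human IAPP difference with hCAST differed from that without it. Of the 35 genes, 0 passed, as did 0.0% of all tested genes by edgeR. The median was -0.63 on the log2 scale, beside -0.0086 over all tested genes. By sign 34 of 35 were negative and 11 had an unadjusted p below 0.05, again without a count over all tested genes. DESeq2 called 1 (Ms4a7) and voom 0, and the shares of all tested genes they called are not given here. For Ms4a7 the interaction was -1.13 ± 0.25 (adjusted p = 0.243), for Cx3cr1 -1.15 ± 0.33 (adjusted p = 0.364) and for Cd84 -1.23 ± 0.40 (adjusted p = 0.419). The 95% interval for Ms4a7 ran from -1.62 to -0.63 before correction for the number of genes.

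Genes of partner proteins were measured too. Among partners of Cybb in the phagocyte NADPH oxidase, Cyba and Rac2 were higher in hIAPP than in WT islets. Cyba, the membrane partner of Cybb, stood at 6.74, 8.31 and 5.96 CPM in hIAPP islets against 3.355, 1.75 and 2.39 CPM in WT islets (1.29 ± 0.24, adjusted p = 0.00305), and Rac2, the small GTPase of the complex, rose by 2.08 ± 0.40 (adjusted p = 0.00362). In rIAPP against WT, Rac2 passed (1.33 ± 0.41, adjusted p = 0.0272) and Cyba did not (0.31 ± 0.24, adjusted p = 0.396). Rac2 did not pass there without the 3 ribosomal-rich libraries, which leaves WT 1 as the only WT library. With those libraries left out, Cyba and Rac2 did not both pass in hIAPP against WT.

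A list of 13 genes held proteins of signalling around activation motifs, among them kinases, adaptors, exchange factors, an actin regulator and a lipid phosphatase. Of the 13, 5 were higher in hIAPP than in WT islets and none was lower, with a median log2 fold change of 0.82. Those with the smallest p were Vav1, an exchange factor (1.88 ± 0.27, adjusted p = 0.000508), Nckap1l, a regulator of actin in blood cells (1.70 ± 0.25, adjusted p = 0.000653), and Inpp5d, the lipid phosphatase SHIP1 (0.82 ± 0.18, adjusted p = 0.00956). Syk, the kinase that binds phosphorylated activation motifs, did not pass (0.68 ± 0.29, adjusted p = 0.146). Of 9 other myeloid transcription factors tested, 7 were higher in hIAPP islets, with the smallest p for Cebpa (1.61 ± 0.20, adjusted p = 0.00021), Irf8 (1.45 ± 0.27, adjusted p = 0.00327) and Runx1 (2.12 ± 0.40, adjusted p = 0.00341). Cebpa and Irf8 also passed in rIAPP against WT (1.06 ± 0.21 and 0.95 ± 0.27, adjusted p = 0.00141 and 0.0191).

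Few ligands of these receptors passed. Of 7 tested, 2 were higher in hIAPP than in WT islets: Il34, the second ligand of the CSF1 receptor, at 5.8, 5.36 and 4.99 CPM in hIAPP islets against 2.73, 3.5 and 1.77 CPM in WT islets (1.12 ± 0.31, adjusted p = 0.0278), and Pros1, a ligand of TAM receptors (0.72 ± 0.19, adjusted p = 0.0264). Csf1 did not pass (0.096 ± 0.14, adjusted p = 0.714). Cx3cl1, which encodes fractalkine, the ligand of Cx3cr1, stood at 21.8, 20.2 and 21.8 CPM in hIAPP islets, 19.8, 19.7 and 25.0 CPM in hIAPP:hCAST islets, 50.75, 53.65 and 50.1 CPM in rIAPP islets, 22.5, 22.9 and 21.0 CPM in hCAST islets and 19.5, 11.4 and 21.7 CPM in WT islets. Its level was set apart in rIAPP islets (1.44 ± 0.13 against WT, adjusted p = 9.18e-07), where Cx3cr1 did not pass (0.50 ± 0.27, adjusted p = 0.194), and not in hIAPP islets (0.16 ± 0.13, adjusted p = 0.451), where Cx3cr1 was higher. Among 8 other leukocyte integrins and adhesion molecules 3 were higher in hIAPP than in WT islets, Itgax (1.62 ± 0.34, adjusted p = 0.00822), Cd44 (0.61 ± 0.16, adjusted p = 0.0222) and Vcam1 (1.29 ± 0.35, adjusted p = 0.029). In rIAPP against WT 3 were higher, Itgb7 (1.49 ± 0.36, adjusted p = 0.00634), Icam1 (1.06 ± 0.26, adjusted p = 0.00813) and Cd44 (0.54 ± 0.16, adjusted p = 0.0243), and Itga4 was lower (-0.43 ± 0.12, adjusted p = 0.0185). In hIAPP:hCAST against hCAST islets 0 genes of the lists of signalling proteins, transcription factors, ligands and adhesion molecules passed. Without the 3 ribosomal-rich libraries, the calls in hIAPP against WT were 2 of 13 signalling proteins, 3 of 10 transcription factors, 0 of 7 ligands and 0 of 8 adhesion molecules, with medians of 0.73, 1.19, 0.12 and 0.87 on the log2 scale. In rIAPP against WT they were 0, 0, 1 and 1.

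Markers of other white blood cells were mostly near 0. Of 15 T and NK cell genes, 13 stayed under 1 CPM in every library, and the T cell receptor subunits Cd3e, Cd3d and Cd3g had at most 0.074, 0.043 and 0.116 CPM. Cd4, which mouse macrophages can also carry, and Lck were the exceptions, Cd4 at 1.59, 2.025 and 1.57 CPM in hIAPP islets against 0.1075, 0 and 0.231 CPM in WT islets (3.67 ± 0.50, adjusted p = 0.000383). The summed level of this list was 2.91 to 3.73 CPM in hIAPP, 2.54 to 2.835 CPM in hIAPP:hCAST, 2.12 to 2.37 CPM in rIAPP, 1.41 to 1.64 CPM in hCAST and 0.438 to 2.08 CPM in WT islets. Of 11 neutrophil genes, 10 stayed under 1 CPM in every library, with Elane at 0 counts and S100a8 and S100a9 at up to 0.067 and 0.223 CPM, while Csf3r, the receptor for G-CSF, stood at 2.59, 3.73 and 1.46 CPM in hIAPP islets against 0.473, 0 and 0.617 CPM in WT islets (2.41 ± 0.47, adjusted p = 0.00407). Their sum was 1.61 to 4.11 CPM in hIAPP, 1.4 to 2.9 CPM in hIAPP:hCAST, 0.74 to 1.41 CPM in rIAPP, 0.628 to 0.8205 CPM in hCAST and 0 to 0.771 CPM in WT islets. All 7 mast cell and basophil genes stayed under 1 CPM, with sums of at most 0.129 CPM, and Mcpt4, Fcer1a and Cma1 had 0 counts. Among B cell genes, Ms4a1 had at most 0.039 CPM. Cd79a, the most abundant, stood at 14.3, 10.6 and 11.1 CPM in hIAPP islets, 24.9, 24.0 and 24.3 CPM in hIAPP:hCAST islets, 7.07, 7.03 and 8.48 CPM in rIAPP islets, 13.65, 7.94 and 11.8 CPM in hCAST islets and 10.8, 14.01 and 9.41 CPM in WT islets. It was higher in hIAPP:hCAST than in hCAST islets (1.13 ± 0.16, adjusted p = 0.0026), and Cd22 was higher in hIAPP than in WT islets (1.57 ± 0.33, adjusted p = 0.006).

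The summed levels of classical monocyte and dendritic cell genes did not follow that of the 35. In hIAPP against WT the median log2 fold change of the tested genes was 0.49 for monocytes and 0.34 for dendritic cells. Without the 3 ribosomal-rich libraries, which leaves WT 1 as the only WT library, these medians were 2.68 and 0.49. Of 6 monocyte genes, 3 stayed under 1 CPM in every library. Classical monocyte genes summed to 2.85 to 5.52 CPM in hIAPP, 2.24 to 5.245 CPM in hIAPP:hCAST, 5.55 to 6.99 CPM in rIAPP, 5.08 to 5.51 CPM in hCAST and 3.94 to 7.63 CPM in WT islets. Of the 4 tested, Plac8 was higher in hIAPP than in WT islets (3.02 ± 0.72, adjusted p = 0.0137) and F13a1, a coagulation factor subunit of monocytes and macrophages, was lower (-1.45 ± 0.41, adjusted p = 0.033). Ccr2, the chemokine receptor that brings monocytes into tissue, stood at 1.89, 0.8185 and 0.74 CPM in hIAPP islets, 1.44, 0.852 and 0.452 CPM in hIAPP:hCAST islets, 3.77, 4.14 and 5.02 CPM in rIAPP islets, 2.18, 1.57 and 2.68 CPM in hCAST islets and 1.29, 1.31 and 2.31 CPM in WT islets. It was highest in rIAPP islets (1.40 ± 0.45 against WT, adjusted p = 0.0344) and lower in hIAPP than in rIAPP islets (-1.90 ± 0.39, adjusted p = 0.00354). Of 7 dendritic cell genes tested, 0 passed in hIAPP against WT and 2, Clec10a and Cd209a, were higher in rIAPP than in WT islets (2.10 ± 0.61 and 2.02 ± 0.56, adjusted p = 0.0192 and 0.0146).

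Markers of other tissue cells also moved between the groups. Of 10 fibroblast and stellate cell genes, 7 were higher in hIAPP than in WT islets and 8 in rIAPP than in WT islets, with sums of 858 to 1053 CPM in hIAPP, 258 to 594 CPM in hIAPP:hCAST, 887 to 1007 CPM in rIAPP, 385 to 596 CPM in hCAST and 291 to 447 CPM in WT islets. In rIAPP islets that sum was as high as in hIAPP islets while the sum of the 35 genes was not. Of 10 endothelial genes, 0 were higher and 1 was lower in hIAPP than in WT islets, and 7 were higher in rIAPP than in WT islets. Of 10 beta cell genes, 7 were lower in hIAPP than in WT islets and 9 were lower in rIAPP than in WT islets, Ins2 with log2 fold changes of -0.71 and -1.33 (adjusted p = 0.00103 and 4.88e-07). Of 11 acinar genes 0 passed in hIAPP against WT, but all 11 had positive log2 fold changes, with a median of 1.08, and their sums were 40180.0, 79380.0 and 36090.0 CPM in hIAPP and 43390.0, 23060.0 and 9551 CPM in WT islets. Without the 3 ribosomal-rich libraries that median was 0.29. Of 9 duct cell genes 3 keratin genes were higher in hIAPP than in WT islets. Of 8 alpha and delta cell genes 0 passed in hIAPP against WT, while 1 was higher and 2 were lower in rIAPP than in WT islets. All 4 globin genes had 0 counts. Without the 3 ribosomal-rich libraries, 1 fibroblast and stellate cell gene was higher, 5 beta cell genes were lower and 0 endothelial, acinar and duct cell genes passed in hIAPP against WT. In rIAPP against WT, 2 fibroblast and stellate cell genes and 3 endothelial genes were higher, and 8 beta cell genes were lower and 1 higher. Of the lists of white blood cells, 1 T and NK cell gene and 0 neutrophil, classical monocyte and dendritic cell genes then passed in hIAPP against WT. The part of these cells in the differences of the 35 genes was not tested.

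**Figure D5:**
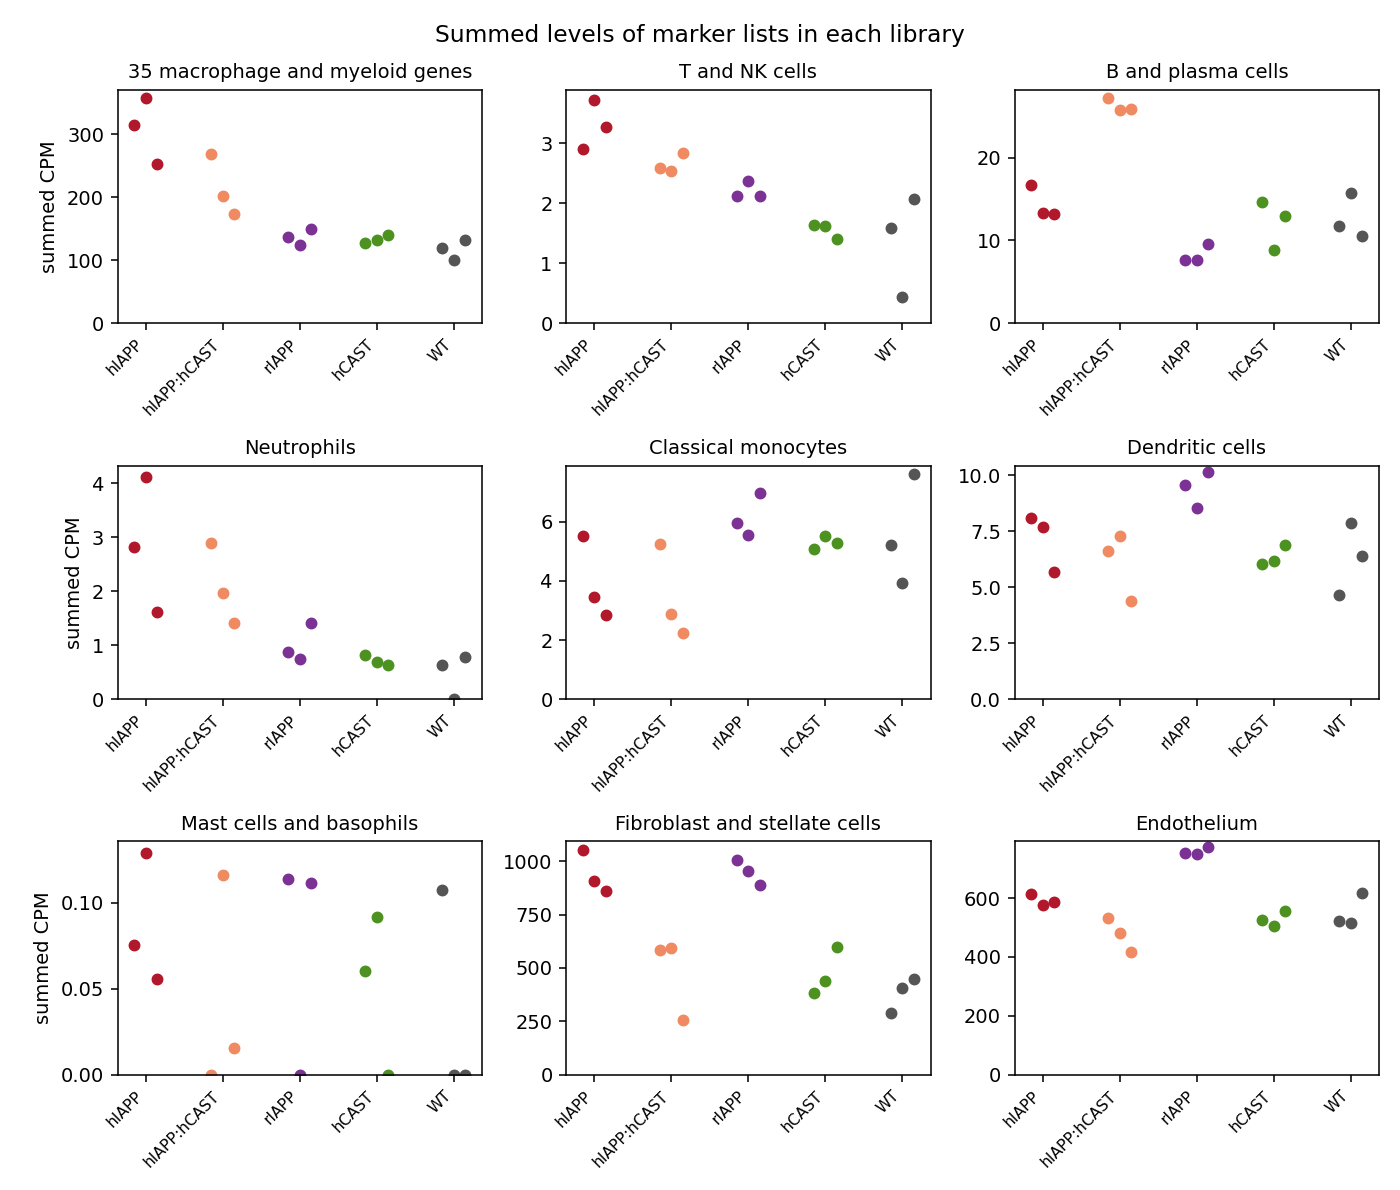
Summed CPM of the 35 genes and of 8 lists of markers of other cells in each library; each panel has its own axis from 0. The 35 genes are higher in both human IAPP groups. At far lower levels so is the T and NK cell list, with at least 2.54 CPM there and at most 2.37 CPM in the other libraries. The neutrophil list is too, also at far lower levels, except that hIAPP:hCAST 3 and rIAPP 3 are alike. The fibroblast list is high in hIAPP and rIAPP islets, and the monocyte, dendritic and endothelial lists are not highest in hIAPP islets.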

How the data were processed

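RNA of bulk islets was measured in 15 libraries. Per the labels' protocols, total RNA was extracted with the RNeasy Mini Kit, Ribo-Zero, TruSeq and NuGEN Ovation kits being used for the libraries. The deposited counts are whole reads per gene symbol, and the deposited FPKM were made by the authors relative to gene length and read total. The submitters' processing notes name STAR, HTSeq, GRCm38 and mm10 without versions; annotation, strand setting and the handling of reads with several matches are not given in the sources used here. FPKM divide by totals that include ribosomal RNA, so they served only as an alternative and, rescaled without those entries, as TPM.

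Counts were tested with edgeR 4.0.16 in R 4.3.3 (quasi-likelihood test, TMM, filterByExpr with a minimum count of 10, robust, 1 coefficient per group over 15 libraries). All 35 genes and 15460 entries in all passed the filter. P-values were adjusted by Benjamini-Hochberg over the 15460 within each of 9 comparisons, and calls were made at 0.05. CPM are relative to TMM-scaled library sizes, and a standard error is the log2 fold change divided by the square root of F. Alternatives were DESeq2 1.42.0, voom in limma 3.58.1, other size factors, no filter, FPKM with pseudocounts of 1 and 0.1, the compared groups alone, and leaving libraries out. All 35 genes could be named; of each other list, up to 3 with the smallest p were named, while Csf1, Syk and the marker genes at or near 0 were named after their values were seen. The 36 genes, their roles and the other lists were chosen with earlier results of these data known. All 30 sample columns of both tables were used. Title numbers are not shared between groups, so no libraries were paired. Some genes of the other lists are not reported here.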

Additional observations from a re-analysis of the deposited data

How the results depend on the processing

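Of 4293 values of single genes over 22 alternatives on counts, 180 changed sign, and in none of these did the difference pass with or without the alternative. Called genes out of 35 moved by more than 1.5 times as follows. Without WT 2, WT 3 and rIAPP 2 there were 18 in place of 28 for hIAPP against WT, 1 in place of 4 for rIAPP against WT, 2 in place of 4 for rIAPP against hCAST, 3 in place of 11 for hIAPP:hCAST against hCAST and 0 in place of 1 for hIAPP:hCAST against hIAPP. With the compared groups alone there were 7 for rIAPP against hCAST and 0 for both hIAPP:hCAST comparisons. Voom gave 2 for rIAPP against WT, 8 for rIAPP against hCAST and 2 for hIAPP:hCAST against hIAPP, and no filter gave 2 for hIAPP:hCAST against hIAPP. DESeq2 gave 7 there and 1 in the interaction. The shares of all tested genes called under these alternatives are not set beside these counts, and the cause was not tested.

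With each library left out in turn the counts were 20 to 28 for hIAPP against WT, 20 to 28 for hIAPP against hCAST, 22 to 25 for hIAPP against rIAPP, 2 to 3 for rIAPP against WT, 2 to 4 for rIAPP against hCAST, 3 to 14 for hIAPP:hCAST against hCAST, 0 to 6 for hIAPP:hCAST against hIAPP, and 0 for hCAST against WT and for the interaction.

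The deposited FPKM divide by totals that include the ribosomal-rich reads. At pseudocounts of 0.1 and 1 the median of all genes stood at 1.82 and 1.26 (log2) in hIAPP against WT. In hIAPP against hCAST it stood at -0.0077 and -0.0056, and the cause of the fewer calls in that comparison was not tested. On those scales there were 0 and 0 calls for rIAPP against WT, 30 and 26 for hCAST against WT, 4 at 0.1 for hIAPP against rIAPP, 3 and 6 for hIAPP against hCAST, 0 and 0 for rIAPP against hCAST, 1 and 2 for hIAPP:hCAST against hCAST and 0 and 0 for hIAPP:hCAST against hIAPP. Reversed at 0.1 and 1 were Cd14 in hIAPP against WT (1.86 and 0.85), Fcer1g in rIAPP against WT (0.61 and 0.35), Tlr2 in rIAPP against hCAST (-0.093 and -0.059) and, in hCAST against WT, Spi1 (1.47 and 0.56), Fcer1g (1.92 and 1.44), Fcgr3 (1.79 and 0.95), Pld4 (1.80 and 0.82) and Cybb (1.56 and 0.79). Itgb2 (1.465) and Cd68 (1.71) in hCAST against WT and Lcp1 in rIAPP against hCAST (-0.0062) reversed at 0.1 only. No paired analysis was possible because title numbers are not shared between groups.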
